A study of Mus musculus with 19 samples.

Results

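The genes described here make and read cyclic AMP (cAMP). There were 10 of them, 6 adenylyl cyclase genes (Adcy1, Adcy2, Adcy3, Adcy5, Adcy8 and Adcy9), 2 genes for catalytic subunits of protein kinase A (PKA; Prkaca and Prkacb) and 2 genes for its regulatory subunits (Prkar1a and Prkar2b). They were taken by name from the 18193 genes of the array. They held 27 of its 45037 probe sets, a probe set being a group of short probes against 1 transcript region. A gene's level is the median of its probe sets on the log2 scale, so it is given between arrays and not between genes.

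Adenylyl cyclases sit in the membrane and turn ATP into cAMP when a G protein of the stimulatory class reaches them, and several of them also read calcium. PKA is held inactive as a tetramer of regulatory and catalytic subunits until cAMP binds the regulatory subunits and frees the catalytic ones. In hippocampal neurons this route acts in dendrites, where PKA is tethered near synapses by anchoring proteins and takes part in long-lasting synaptic potentiation.

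RNA came from dendrites severed with glass pipettes from hippocampal neurons that had been cultured for 14 days from E18 embryos of the inbred mouse strains Balb/c and C57BL/6, with no treatment. Each array held 1 pool. Balb/c gave 2 pools of 100 dendrites, 1 of 200 and 2 of 400, and C57BL/6 gave 4, 5 and 5. The pools are called biological replicates, but nothing says that they came from separate cultures or litters, and p-values may therefore reflect technical spread among the pools alone. Axons could not be told from dendrites by shape when the neurites were taken. Arrays are named by strain, pool size and replicate, so that Balb/c 200-1 is the first pool of 200 Balb/c dendrites. In such pools fewer neurites with a transcript and less transcript per neurite cannot be told apart.

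Some features of the whole series touch the results below. On the log2 scale Balb/c exceeded C57BL/6 by 0.22 at the median gene, so differences (Balb/c minus C57BL/6) are given relative to the median gene, while tests used the values as deposited. Balb/c 200-1, C57BL/6 200-1 and C57BL/6 400-1 lay between the strains, with mean correlations of 0.678, 0.781 and 0.722 with the other Balb/c arrays and of 0.782, 0.757 and 0.779 with the other C57BL/6 arrays. The columns of 9 arrays, all 5 of Balb/c and C57BL/6 100-1, 100-2, 200-1 and 400-1, were deposited with up to 14 decimals and those of the other 10 with up to 9, and this number format was taken as a batch of unknown origin. Of 8 markers of pyramidal neurons and dendrites, Map2, a dendritic microtubule protein, and Neurod6, a transcription factor of pyramidal neurons, were lower in Balb/c and Camk2a, a synaptic kinase, was higher. Among all genes 11.4% were lower and 21.1% higher, and none of the 8 passed with the number format as a block. The mean level of the list was 7.49 to 8.79 in Balb/c arrays and 7.74 to 8.51 in C57BL/6 arrays. Nrgn, another of the 8, stood at 13.32 in Balb/c and 13.03 in C57BL/6. Slc17a7, the vesicular glutamate transporter that defines these neurons, stood at 6.74 in Balb/c and 6.36 in C57BL/6. Both means were below the array medians, which were 6.85 to 6.98 in Balb/c and 6.69 to 6.92 in C57BL/6.

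Across the strains 4 of the 10 genes passed the test and all 4 were lower in Balb/c: Adcy1, Prkaca, Prkacb and Prkar2b. Each fell by between 1.45 and 2.08 on the log2 scale relative to the median gene, which is 2.74-fold to 4.24-fold. None of the 10 was called higher, and the 6 others differed by -0.45 to 0.77. Among all genes limma called 32.5% in either direction, 11.4% lower and 21.1% higher in Balb/c, at a Benjamini-Hochberg adjusted p under 0.05. The median difference of the 10 genes was -0.31 where that of all genes is 0 by construction.

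**Figure D1:**
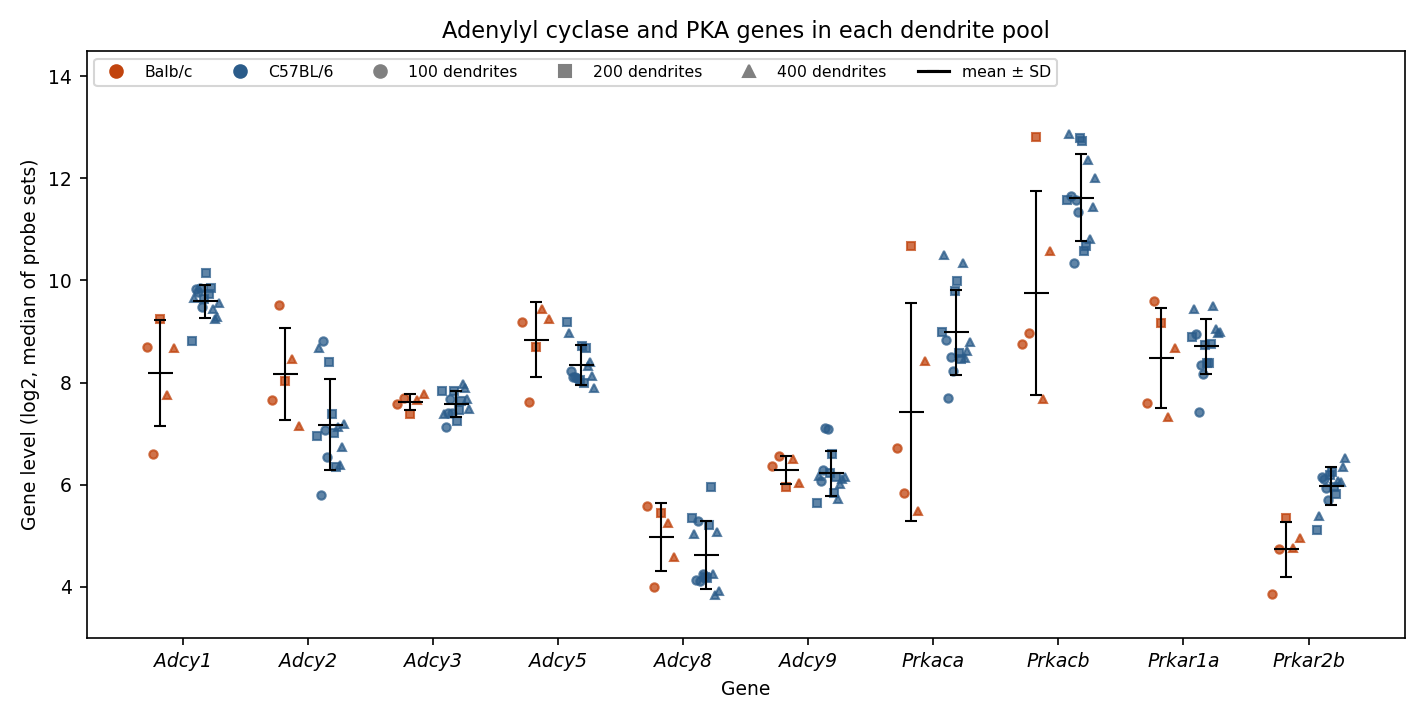
Level of each of the 10 genes (y axis, log2, median of its probe sets) in each of the 19 arrays, with Balb/c in orange and C57BL/6 in blue, marker shape for the number of dendrites, and mean ± SD as black bars. Balb/c arrays lie mostly below C57BL/6 arrays for Adcy1, Prkaca, Prkacb and Prkar2b, and the spread of Prkaca and Prkacb is wider in Balb/c (SD 2.14 and 2.0) than in C57BL/6 (SD 0.84 and 0.84).

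Adcy1 encodes a cyclase that is switched on by calcium and calmodulin and is known for its part in hippocampal plasticity. In Balb/c its level was 8.69 and 6.59 in the pools of 100 dendrites, 9.24 in the pool of 200, and 7.76 and 8.67 in the pools of 400. In C57BL/6 the lowest array was at 8.81 (200-1), the median at 9.64 and the highest at 10.14. The mean of C57BL/6 was above all 5 Balb/c arrays and 4 of them were under every C57BL/6 array, and the groups overlapped only through Balb/c 200-1. The means were 8.19 ± 1.04 (SD, n = 5) and 9.59 ± 0.33 (SD, n = 14), so that relative to the median gene Adcy1 was at -1.61 ± 0.30 (SE; limma adjusted p = 0.00186). An exact two-sided permutation test over all 11628 choices of the Balb/c arrays gave an unadjusted p of 0.000258. The difference stayed past the threshold in 31 of 34 other settings. It did not with the number format of the columns as a block or within the longer format (limma adjusted p = 0.0709 and 0.347, described below). Without Balb/c 100-2 and 400-1, which held the fewest distinct values and were the lowest for this gene, it was -0.91 and no longer passed (limma adjusted p = 0.0658).

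Adcy8 encodes another calmodulin-stimulated cyclase of the list and did not pass. Its only probe set ran from 3.99 to 5.58 in Balb/c and from 3.84 to 5.95 in C57BL/6, with means of 4.98 and 4.63. The strains overlapped over nearly their whole ranges, and the relative difference was 0.13 ± 0.33 (limma adjusted p = 0.434).

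Adcy2, a cyclase that G protein beta-gamma subunits can stimulate, had the largest positive difference of the 10 genes. In Balb/c it stood at 7.67 and 9.51 in pools of 100, 8.03 in the pool of 200, and 8.47 and 7.15 in pools of 400. In C57BL/6 it ran from 5.81 over a median of 7.04 to 8.81. The mean of C57BL/6 was below 4 Balb/c arrays, 1 of them above every C57BL/6 array, and 9 of the 14 C57BL/6 arrays lay below every Balb/c array. The difference of 0.77 ± 0.43 did not pass (limma adjusted p = 0.0788). It passed in limma without Balb/c 400-2 (adjusted p = 0.0451), without C57BL/6 400-1 (0.0376) or without C57BL/6 100-2 (0.0357), and the exact permutation test gave an unadjusted p of 0.0488.

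The other 3 cyclases did not pass as the median of their probe sets. Adcy5, a cyclase inhibited by calcium, had means of 8.84 ± 0.74 (SD, n = 5 Balb/c arrays) and 8.35 ± 0.40 (SD, n = 14 C57BL/6 arrays), with 3 Balb/c arrays above and 1 below every C57BL/6 array (difference 0.27, limma adjusted p = 0.165). Adcy3, a cyclase of neuronal cilia, was at 7.62 ± 0.15 and 7.58 ± 0.26 (difference -0.17, limma adjusted p = 0.881). Adcy9, a widely expressed cyclase, was at 6.29 ± 0.27 and 6.23 ± 0.44 (difference -0.16, limma adjusted p = 0.871). For Adcy3 and Adcy9 the sign of the difference rests on the scaling, since the values as deposited were higher in Balb/c by 0.04 and 0.06 and quantile normalisation gave -0.12 and -0.10. Each of these 3 genes was the median of 4 probe sets, of which 1 or 2 were called higher on their own, as given below. Read from the probe set with the highest mean, Adcy3 (0.58, limma adjusted p = 0.0335) and Adcy9 (1.13, 0.0117) were called higher, as 34.6% of all genes were called in either direction. Adcy5 was called higher without Balb/c 100-2 (0.58, limma adjusted p = 0.0244).

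Prkaca encodes the alpha catalytic subunit of PKA. In Balb/c it was at 6.72 and 5.83 in pools of 100, at 10.67 in the pool of 200, and at 5.49 and 8.41 in pools of 400. In C57BL/6 it ran from 7.69 over a median of 8.71 to 10.49. A total of 3 Balb/c arrays lay below every C57BL/6 array, while Balb/c 200-1 was the highest of all 19. The means were 7.42 ± 2.14 (SD, n = 5) and 8.98 ± 0.84 (SD, n = 14), and the difference was -1.78 ± 0.59 (SE; limma adjusted p = 0.045, exact permutation unadjusted p = 0.0279).

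Prkacb encodes the beta catalytic subunit. In Balb/c its level was 8.76 and 8.97 in pools of 100, 12.81 in the pool of 200, and 7.67 and 10.57 in pools of 400. The C57BL/6 arrays ran from 10.33 over a median of 11.57 to 12.87. Again 3 Balb/c arrays lay below every C57BL/6 array and Balb/c 200-1 lay near the top of the C57BL/6 range. The means were 9.76 ± 2.0 and 11.62 ± 0.84, and the difference was -2.08 ± 0.57 (limma adjusted p = 0.0155, exact permutation unadjusted p = 0.00851).

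The calls of the 2 catalytic subunit genes rested on few arrays. Without Balb/c 100-1, 100-2 or 400-1 the limma adjusted p of Prkacb was 0.0511, 0.0528 and 0.0859, and that of Prkaca was 0.109, 0.168 and 0.194. Prkaca also lost its call without C57BL/6 400-4 (0.0519), 100-1 (0.0541), 400-5 (0.0547), 400-1 (0.057), 200-2 (0.0597), 200-3 (0.0603) or 400-2 (0.0643). With a variance for each strain the adjusted p of Prkaca was 0.0674 and that of Prkacb 0.0278. Without Balb/c 100-2 and 400-1 the differences were -0.58 (Prkaca, adjusted p = 0.691) and -1.10 (Prkacb, 0.316). Without the 3 arrays between the strains they were -2.51 and -2.79, but leaving out arrays for that place widens strain differences by construction, and 43.6% of all genes were then called.

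Within C57BL/6 the 2 catalytic subunit genes rose and fell together from array to array. Over the 14 arrays Pearson's r was 0.887 (permutation p adjusted over the 45 pairs of the 10 genes = 0.00315) and Spearman's rho 0.899 (adjusted permutation p = 0.0018). It was the only pair of the 45 that passed. Genes outside the 10 followed them more closely still over these arrays, Samd10 with Prkaca (r = 0.942) and Micos10 with Prkacb (r = 0.952). How many of all genes correlated this strongly with either was not counted. Leaving out the 2 arrays farthest from the Prkaca median gave r = 0.882, leaving out C57BL/6 200-1 and 400-1 gave 0.862, and the 10 arrays of the shorter number format gave 0.827. With the mean of each pool size removed r was 0.894. In 4 of the 14 arrays (200-2, 200-3, 400-1 and 400-2) Prkaca stood above the rest, and over the other 10, all below 9, r was 0.686. Both Prkaca probe sets followed the probe set 1420611_at of Prkacb (r = 0.783 and 0.751), and neither correlation with its other 2 probe sets, 1420610_at and 1457197_at, was above 0.24.

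**Figure D2:**
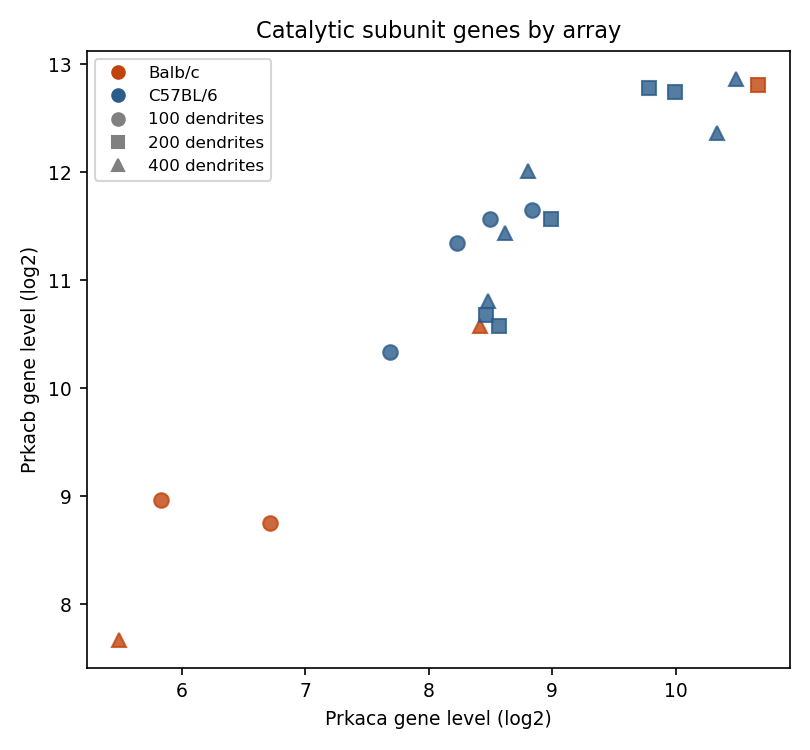
Prkaca level (x axis, log2) against Prkacb level (y axis, log2), 1 point per array, with Balb/c in orange, C57BL/6 in blue and marker shape for the number of dendrites. The C57BL/6 points climb together (r = 0.887, n = 14), 3 Balb/c arrays lie at the lower left below every C57BL/6 array on both axes, and Balb/c 200-1 lies at the upper right.

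Because cAMP acts on transcription through the cAMP response element TGACGTCA, bound by CREB, whose core is TGACG, promoter sequences were searched for it. They are shown for the genes that differed between the strains. Prkar1a, which was not called, is shown as well, at the start whose window held the only full element. The starts shown for Prkaca and Prkacb are likewise the ones whose windows held a core. RefSeq windows of assembly GRCm38.p6 were given for 9 of the 10 genes (19 windows, each searched over the 250 bases before the start, on both strands; the core lies within the full element). The 150 bases before 1 start of each gene follow, 5′ to 3′ on the gene's strand, with the core, which reads CGTCA when it lies on the opposite strand, or the full element in capitals.
Prkaca, chr8:83972828-83972977, plus strand: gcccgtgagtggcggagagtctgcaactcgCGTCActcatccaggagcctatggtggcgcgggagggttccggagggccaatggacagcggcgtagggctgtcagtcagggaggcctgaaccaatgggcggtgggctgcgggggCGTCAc
Prkacb, chr3:146812947-146813096, minus strand: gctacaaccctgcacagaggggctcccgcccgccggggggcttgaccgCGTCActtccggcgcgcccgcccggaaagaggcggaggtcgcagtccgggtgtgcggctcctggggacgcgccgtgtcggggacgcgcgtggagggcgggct
Prkar1a, chr11:109650799-109650948, plus strand: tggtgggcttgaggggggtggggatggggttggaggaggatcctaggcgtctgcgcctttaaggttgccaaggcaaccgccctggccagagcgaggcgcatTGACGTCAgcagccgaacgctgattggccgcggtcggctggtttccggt
Adcy1, chr11:7063283-7063432, plus strand: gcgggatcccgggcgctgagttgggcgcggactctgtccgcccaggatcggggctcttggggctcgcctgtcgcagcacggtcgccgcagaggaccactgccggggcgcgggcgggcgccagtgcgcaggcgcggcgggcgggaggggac
Prkar2b, chr12:32061278-32061427, minus strand: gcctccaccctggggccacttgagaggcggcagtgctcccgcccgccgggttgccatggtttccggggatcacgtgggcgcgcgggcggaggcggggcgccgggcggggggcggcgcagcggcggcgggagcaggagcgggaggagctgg
The core stood at positions -120 and -6 of this Prkaca start and at -102 of this Prkacb start, and the windows of their other starts held none. The full element was found once, at -49 of this Prkar1a start. The core was in 6 of the 19 windows (31.6%) and in 17.8% of all 32851 windows of the table. It was in windows of 4 of the 9 genes, and 3 of the 6 windows were of Prkar1a, which had 6 windows and whose overlapping ones shared 1 core. The full element was in 1 of 19 and in 1.55% of all. The windows of Adcy1, Prkar2b, Adcy2, Adcy3 and Adcy5 held no match, and that of Adcy9 held 1 core, at -24. All windows are of 1 reference assembly, so they do not compare the sequences of the strains. These matches describe the letters only, and binding was not measured.

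Prkar2b encodes RII-beta, the regulatory subunit that anchoring proteins hold in neuronal dendrites. In Balb/c it was at 3.86 and 4.75 in pools of 100, 5.34 in the pool of 200, and 4.75 and 4.96 in pools of 400. In C57BL/6 the lowest array was at 5.12 (200-1), the median at 6.06 and the highest at 6.52. A total of 4 Balb/c arrays lay below every C57BL/6 array, and 13 of the 14 C57BL/6 arrays lay above every Balb/c array. The means were 4.73 ± 0.54 (SD, n = 5) and 5.97 ± 0.37 (SD, n = 14), the difference was -1.45 ± 0.24 (limma adjusted p = 0.000898), and the exact permutation test gave an unadjusted p of 0.000172. It passed in every fit that left out 1 array and, without Balb/c 100-2 and 400-1, was the only 1 of the 10 genes still called (difference -1.44, limma adjusted p = 0.0182), where 11.3% of all genes were. These levels lay below the array medians in both strains, so background can limit the size of the difference. A mark of sharing here is an ending of _a_at, _s_at or _x_at, though _a_at need not mean binding to another gene. Restricted to the probe set with no such mark, 1438664_at, the gene did not pass (difference as deposited -0.74, limma adjusted p = 0.141). That setting left out 1430640_a_at as well as 1456475_s_at.

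Prkar1a encodes RI-alpha, the regulatory subunit of PKA that is mostly soluble. In Balb/c it was at 7.60 and 9.61 in pools of 100, 9.16 in the pool of 200, and 7.33 and 8.68 in pools of 400, and in C57BL/6 it ran from 7.43 over a median of 8.82 to 9.49. The Balb/c arrays reached past the C57BL/6 range at both ends, and the difference was -0.45 ± 0.34 (limma adjusted p = 0.612).

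Probe sets of a gene often did not move together, so each is shown on its own, relative to the median probe set, which was 0.25 higher in Balb/c. Of the 27 probe sets, 5 were called lower and 4 higher in Balb/c, where limma called 11.6% of all probe sets lower and 21.3% higher. No probe set of the 10 genes had all Balb/c arrays below all C57BL/6 arrays, as 0.446% of all probe sets did. The 5 lower calls came 1 from each of Adcy1, Prkaca, Prkacb, Prkar1a and Prkar2b, and the 4 higher calls from Adcy3, Adcy5 and Adcy9. The authors state that the array was designed on C57BL/6, so that Balb/c sequence variants may affect its values. They counted similar numbers of variants in the genes most different and most similar between the strains. The part of such variants in these probe sets was not tested.

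**Figure D3:**
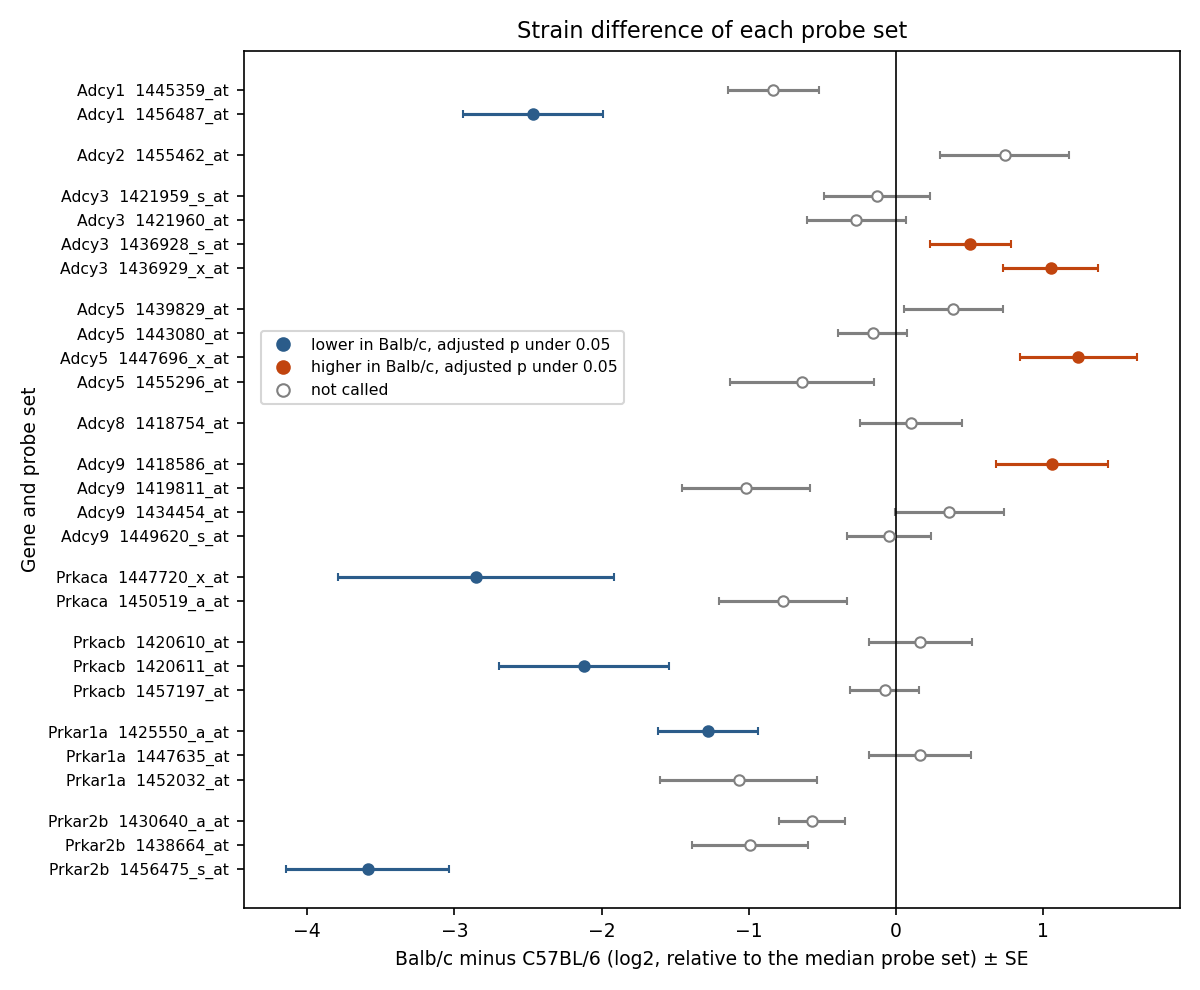
Difference between Balb/c and C57BL/6 for each of the 27 probe sets (x axis, log2 relative to the median probe set, ± SE), grouped by gene on the y axis, with filled blue points for calls lower in Balb/c, filled orange points for calls higher and open points for the rest. In each of the 4 genes called lower, 1 probe set carries most of the difference, from -3.59 for 1456475_s_at of Prkar2b to -2.12 for 1420611_at of Prkacb.

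Prkar2b 1456475_s_at was at 3.86, 3.41, 6.93, 2.96 and 4.64 in Balb/c pools 100-1, 100-2, 200-1, 400-1 and 400-2, and ran from 5.12 to 8.78 in C57BL/6. The lowest C57BL/6 arrays were 200-1 (5.12) and 400-1 (6.48), and only Balb/c 200-1 reached into their range. Its difference was -3.59 ± 0.55 (limma adjusted p = 0.000297), while 1438664_at at -0.99 and 1430640_a_at at -0.57 did not pass. Adcy1 1456487_at differed by -2.47 ± 0.48 (limma adjusted p = 0.0019), with Balb/c arrays at 9.15, 6.56, 11.44, 7.99 and 10.01 and C57BL/6 arrays from 10.59 to 11.96. Its partner 1445359_at differed by -0.83 (limma adjusted p = 0.153).

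Prkaca 1447720_x_at spanned 5.29 to 14.08 in Balb/c and 10.05 to 13.95 in C57BL/6 (difference -2.86 ± 0.94, limma adjusted p = 0.0366). The ending _x_at marks probes that can also bind other transcripts, and the other Prkaca probe set, 1450519_a_at, differed by -0.77 and did not pass (limma adjusted p = 0.369). Prkacb was called through 1420611_at, which, as the middle of 3 probe sets, is the gene's level given above. The other 2 Prkacb probe sets differed by 0.17 (1420610_at) and -0.08 (1457197_at), so with the gene read from its brightest probe set Prkacb was not called (difference as deposited 0.17, limma adjusted p = 0.571). Prkar1a 1425550_a_at was lower by its own test (-1.28 ± 0.34, limma adjusted p = 0.0238), while 1452032_at (-1.07) and 1447635_at (0.16) did not pass.

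The 4 higher calls were 1436928_s_at (0.50 ± 0.27) and 1436929_x_at (1.05 ± 0.32) of Adcy3, 1447696_x_at of Adcy5 (1.24 ± 0.40) and 1418586_at of Adcy9 (1.06 ± 0.38), with limma adjusted p of 0.0375, 0.00476, 0.00772 and 0.0122. Adcy9 1418586_at was at 8.12, 9.47, 7.32, 9.26 and 7.51 in Balb/c and from 6.10 to 8.32 in C57BL/6. The Balb/c arrays 100-2 and 400-1 lay above every C57BL/6 array and the other 3 inside their range. Of the 29 pairs of probe sets of 1 gene, 7 correlated above 0.5 over the 14 C57BL/6 arrays and 12 below 0, with a median r of 0.02. The 3 probe sets of Prkar2b correlated at 0.51 to 0.70, and the 2 of Adcy1 at -0.17.

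The strain calls did not pass when the number format of the columns was a block. With that block limma called 1.92% of all genes and none of the 10, and the differences of Adcy1 (-1.45, adjusted p = 0.0709), Prkaca (-1.71, 0.24), Prkacb (-1.98, 0.158) and Prkar2b (-1.10, 0.0814) kept their direction. Of the 27 probe sets 1 was called, Prkar2b 1456475_s_at (-2.82, adjusted p = 0.0485), where 1.87% of all probe sets were. Within the 9 columns of the longer format, 5 of Balb/c and 4 of C57BL/6, limma called 0% of all 18193 genes and so none of the 10 (2367 of all genes had an unadjusted p under 0.05), and the unadjusted p was 0.0234 for Adcy1, 0.029 for Prkar2b, 0.0565 for Prkacb and 0.119 for Prkaca. Control probe sets at the 3′ and 5′ ends of 2 transcripts bear on how far the amplified RNA reached. For Actb the 3′ value less the 5′ value ran from -0.69 to 2.27 in Balb/c and from 1.17 to 5.56 in C57BL/6. The lowest C57BL/6 arrays were 200-1 (1.17) and 400-1 (1.65), also the 2 lowest C57BL/6 arrays for Prkar2b. For Prkaca (10.49) and Prkacb (12.87), 400-1 was instead the highest C57BL/6 array. For Adcy1, 200-1 was the lowest (8.81) and 400-1 stood at 9.65, near the C57BL/6 median of 9.64. For Gapdh the same measure overlapped between the strains (3.14 ± 1.42 in Balb/c and 3.27 ± 0.62 in C57BL/6), and C57BL/6 200-1 was the highest of the 19 arrays (5.00). The part of RNA length in these differences was not tested.

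Some markers of other cells were called between the strains. Of 6 interneuron markers, Gad1, the GABA-synthesising enzyme, and Sst, a neuropeptide, were lower in Balb/c and Pvalb, a calcium-binding protein, was higher, and the mean level of the list was 7.24 to 7.69 in Balb/c and 7.26 to 8.22 in C57BL/6. Of 6 astrocyte markers 1 was lower (Gja1, a gap junction protein; mean of the list 5.88 to 7.58 and 6.26 to 7.55), of 5 oligodendrocyte markers 2 were higher (Mbp and Mag; 5.87 to 6.79 and 5.83 to 6.56), and of 6 microglia markers 1 was higher (Csf1r; 7.08 to 7.69 and 6.66 to 7.66). Among all genes 11.4% were lower and 21.1% higher in Balb/c. Gad1 (-2.02, limma adjusted p = 0.0338) was the only marker of these lists called with the number format as a block. With that block 1.92% of all genes were called. The part of such cells in the levels of the 10 genes was not tested.

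The number of dendrites in a pool was the other factor of the design. As a slope per doubling, with strain as a covariate, limma called 0% of all genes (850 genes had an unadjusted p under 0.05, none of them among the 10). The slopes of the 10 genes ran from -0.23 ± 0.12 for Adcy9 to 0.45 ± 0.31 for Prkaca. Prkar1a had the clearest order within C57BL/6, at 8.22 ± 0.63 (SD, n = 4) in pools of 100, 8.63 ± 0.23 (n = 5) in pools of 200 and 9.19 ± 0.25 (n = 5) in pools of 400, with every pool of 400 above every smaller pool, a slope of 0.49 ± 0.14 that did not pass over all genes (limma adjusted p = 0.624). Prkaca was at 8.31 ± 0.48, 9.16 ± 0.70 and 9.35 ± 0.98 in the same pools, and the ranges of all 3 sizes overlapped. Adcy1 was at 9.73 ± 0.17, 9.64 ± 0.50 and 9.44 ± 0.17, and Prkar2b at 5.98 ± 0.21, 5.86 ± 0.45 and 6.07 ± 0.43.

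Whether the slope differed between the strains was tested as an interaction. It was called for 0% of all genes (690 at an unadjusted p under 0.05) and for none of the 10. Prkar1a was the only 1 of the 10 with an unadjusted p under 0.05, with a slope that was lower in Balb/c by 0.79 ± 0.35 (limma unadjusted p = 0.036, adjusted p = 1.0). Its 2 Balb/c pools of 100 stood at 7.60 and 9.61 and its 2 pools of 400 at 7.33 and 8.68, so pools of 1 size differed by more than the sizes did.

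The other genes of the pathway were described from a list of 60 chosen by role, of which 53 were measured. In Balb/c 6 were lower, 8 higher and 39 did not pass, beside 11.4% lower and 21.1% higher among all genes, and the median difference of the 53 was -0.09. None of the 53 was called with the number format as a block. The differences by role are shown in the plot of the pathway.

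**Figure D4:**
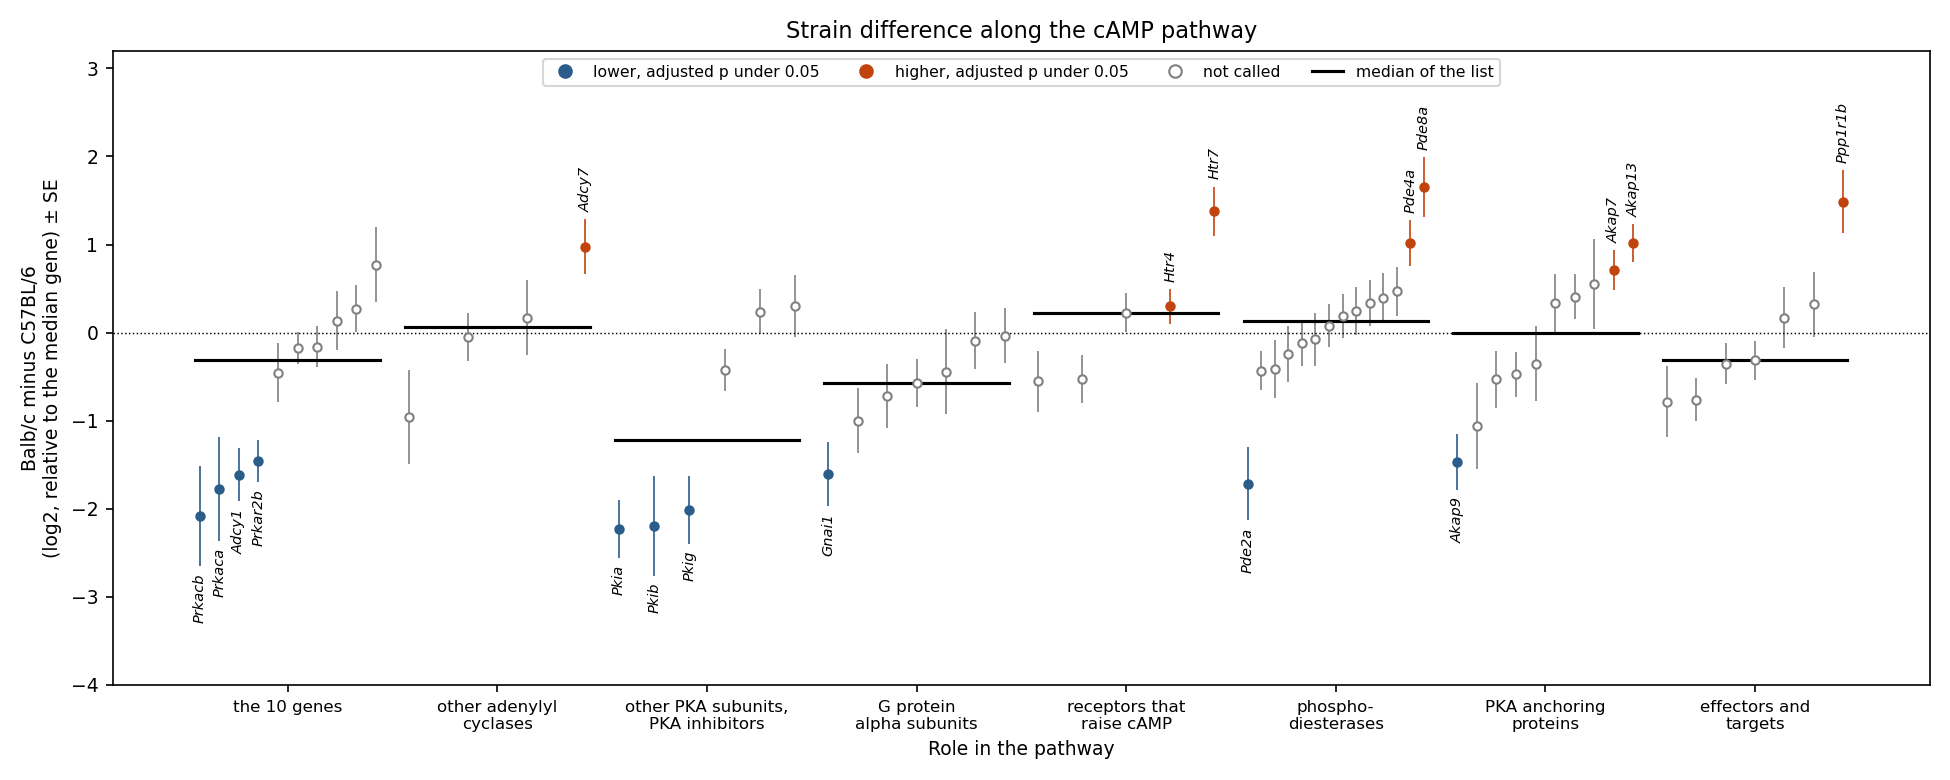
Difference between Balb/c and C57BL/6 (y axis, log2 relative to the median gene, ± SE) for the 10 genes and for 53 other genes of the cAMP pathway, grouped by role along the x axis, with filled blue points lower and filled orange points higher at an adjusted p under 0.05, open points for the rest and a black line at the median of each list. The list of other PKA subunits and PKA inhibitors has the lowest median (-1.22), with Pkia, Pkib and Pkig all called lower.

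Of the 6 lower calls 3 were the genes of the PKA inhibitors. Pkia encodes PKI-alpha, a small protein that blocks the free catalytic subunit, and its means were 6.21 ± 0.99 (SD, 5 Balb/c arrays) and 8.23 ± 0.49 (SD, 14 C57BL/6 arrays; difference -2.23 ± 0.33, limma adjusted p = 0.000269). Pkig, PKI-gamma, differed by -2.01 ± 0.39 (limma adjusted p = 0.00185) and Pkib, PKI-beta, by -2.19 ± 0.56 (limma adjusted p = 0.011). Pkia kept its call with unshared probe sets only, but every probe set of Pkig and Pkib carried a mark of sharing, so they could not be tested in that way. Read from its brightest probe set Pkig was at -1.21 and did not pass (limma adjusted p = 0.0769). For each of the 3 genes the C57BL/6 mean was above all 5 Balb/c arrays. The other 3 genes of that list, the regulatory subunits Prkar1b (-0.43) and Prkar2a (0.24) and the PKA-related kinase Prkx (0.30), did not pass.

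Of 7 G protein alpha subunit genes 1 was lower. Gnai1, an inhibitor of cyclases, differed by -1.60 ± 0.37 (limma adjusted p = 0.007; 0.0558 with unshared probe sets only), while Gnao1, the abundant G protein of neurons, differed by -1.0 ± 0.37 and did not pass (limma adjusted p = 0.11). The stimulatory subunit genes Gnas (-0.04) and Gnal (-0.09) did not pass. Of 5 measured receptors that raise cAMP 2 were higher, the serotonin receptors Htr7 (10.03 ± 0.70 in Balb/c and 8.44 ± 0.46 in C57BL/6, difference 1.38 ± 0.28, limma adjusted p = 0.000472) and Htr4 (0.30 ± 0.20, limma adjusted p = 0.0491). The call of Htr4 held in 6 of 33 other settings.

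Of the 4 other cyclases 1 was higher, Adcy7 (0.97 ± 0.31, limma adjusted p = 0.00662). Its difference was 0.19 with the brightest probe set (limma adjusted p = 0.381) and 0.26 with unshared probe sets only (0.14), and neither passed. Adcy6, a cyclase inhibited by calcium, differed by -0.96 ± 0.53 and did not pass (limma adjusted p = 0.292). Of 14 measured phosphodiesterases, the enzymes that degrade cyclic nucleotides, 2 were higher and 1 lower. Pde8a (1.65 ± 0.34, limma adjusted p = 0.000613) and Pde4a (1.01 ± 0.26, limma adjusted p = 0.00172) are specific for cAMP. Pde2a, which cGMP stimulates, was the lower 1 (-1.72 ± 0.41, limma adjusted p = 0.00902), but its sign turned when only probe sets with no mark of sharing were used (0.46 as deposited).

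Of 10 anchoring protein genes, Akap13 (1.02 ± 0.22, limma adjusted p = 0.000433) and Akap7 (0.71 ± 0.23, limma adjusted p = 0.00443) were higher, and Akap9, an anchoring protein of the Golgi and centrosome, was lower (-1.47 ± 0.32, limma adjusted p = 0.00594). With the brightest probe set Akap13 turned sign (-0.042 as deposited, limma adjusted p = 0.858) and Akap9 was at -2.63 and did not pass (0.0547). Akap5, the anchoring protein of the postsynaptic density, differed by -0.53 and did not pass. Of 7 measured effectors and targets 1 was higher, Ppp1r1b, the PKA-regulated phosphatase inhibitor DARPP-32 (8.58 ± 0.89 in Balb/c and 6.88 ± 0.67 in C57BL/6, difference 1.49 ± 0.36, limma adjusted p = 0.00164). Creb1, the transcription factor that PKA activates, differed by -0.76 ± 0.24 and did not pass (limma adjusted p = 0.0875). Pkib, Pde2a, Akap9 and the genes that did not pass, other than Adcy6, Gnao1 and Creb1, were named after their values were seen. Without Balb/c 100-2 and 400-1 the calls of Gnai1, Htr4, Adcy7, Pde4a, Pde2a, Akap7, Akap9 and Ppp1r1b were lost.

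For each of the 10 genes the gene most like it over the 14 C57BL/6 arrays was taken from all 18193 by Pearson's r, as a description. The closest matches were Micos10 to Prkacb (0.95), Samd10 to Prkaca (0.94), Chrna4 to Adcy8 (0.94), Ndufb7 to Prkar2b (0.94), Dtna to Prkar1a (0.92), Atp1b2 to Adcy5 (0.92), Dbi to Adcy9 (0.92), Prrg1 to Adcy2 (0.87), Fth1 to Adcy1 (0.84) and Il10rb to Adcy3 (0.84). None of the 10 had another of the 10 as its closest match. Each is the highest value over all genes, and the arrays were normalised together.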

How the data were processed

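Pools of severed dendrites were measured on 19 Affymetrix mouse arrays after rounds of RNA amplification. The authors deposited 1 log2 value for each probe set, computed with RMA (2.0, per the submitters' processing notes) from the upper decile of its probes. That the base is 2 follows from the range, 2.12 to 16.0. Centring and scaling by an inner percentile range, which the methods name, was not in these values and was tried as an alternative. Signal over background was not given, and the number of arrays limits the precision.

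Of 45101 probe sets, 64 were controls. The platform annotation gave 34945 others 1 symbol, 932 several and 9160 none, and 34741 of the first matched RefSeq (GRCm38.p6) by gene identifier. Genes took the median over probe sets carrying 1 symbol. Of the 60 pathway genes, 53 were analysed here.

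Strain was fitted in R 4.3.3 with lmFit and eBayes of limma 3.58.1 on all 18193 genes or all 45037 probe sets and adjusted by Benjamini-Hochberg at 0.05, with no covariate, as the methods name none. Pool size entered as a slope per doubling, with strain, and as an interaction. Single genes were also tested by exact permutation, and pairs of the 10 genes were correlated over the C57BL/6 arrays with 100000 permutations (numpy 2.4.6, scipy 1.17.1). Fits were tested on simulated data. The highest correlation of any pair of arrays was 0.945, so no column was a copy. Same-numbered arrays of the strains, in pools of 100 and 400, correlated at r from -0.07 to 0.02 as deviations from group means. Balb/c had 2 pools of each of these sizes, whose deviations mirror each other. The check could therefore not settle whether replicates were paired.

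Of the pathway genes, each role group's 2 genes of smallest strain p were named by rule. The 10 genes, the lists and the 3 arrays between the strains were chosen with earlier results of these data known. Leaving out Balb/c 100-2 and 400-1, and a variance per strain, were added after the data were seen.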

Additional observations from a re-analysis of the deposited data

Results flagged for a closer look

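Of 40 sets of 4 or 5 arrays, each for 1 of the 10 genes, 1 held an array far from the others. In the C57BL/6 pools of 100 dendrites, Adcy8 stood at 5.29 in replicate 2, and its gap to the next array was 0.874 of the whole range, above the limit of 0.829 for 4 arrays. Chance alone gives about 1 such set in 20. The 3 other pools stood at 4.11 to 4.25.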

How the results depend on the processing

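The main fits called 4 of the 10 genes, 9 of their 27 probe sets and 14 of the 53 other pathway genes by strain. Of all genes, 32.5% were called. Without probe sets marked as shared, 2 genes and 9 pathway genes were called (31.7% of the 16591 genes left). Prkar2b lost its call there, while Prkaca, Pkib, Pkig and Pde4a had no probe set left and could not be tested. With the number format as a block the counts were 0 genes, 1 probe set and 0 pathway genes (1.92% of all genes), and within the long format 0, 0 and 0 (0% of all genes). With the replicate block they were 2, 2 and 6 (7.38%). Pools of 400 alone gave 2 genes and 4 probe sets (17% of all genes), and pools of 100 alone 8 pathway genes (11.5%). Without Balb/c 100-2 and 400-1 the counts were 1, 2 and 8 (11.3%). Leaving out each array in turn gave 2 to 5 genes (2 without Balb/c 100-1 or 400-1), 4 to 10 probe sets (4 without Balb/c 100-2 or 400-1, 5 without 100-1) and 13 to 18 pathway genes, with 29.2%, 24.4% and 22.5% of all genes without Balb/c 100-1, 100-2 and 400-1. Leaving out arrays called 0 genes for the pool size slope and 0 for the interaction, as did every other setting run for them. Without dim genes 3 of the 10 genes were called (37.3% of the 9096 genes left), but Prkar2b, Adcy8 and Adcy9 were not tested there. All other settings kept the strain counts within 1.5 times.

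Some differences as deposited turned sign. Quantile normalisation gave -0.12 for Adcy3 and -0.10 for Adcy9, and centring and range scaling gave -0.12 and -0.13. The brightest probe set gave -0.39 for Adcy5, 0.17 for Prkacb and -0.042 for Akap13, and probe sets with no mark of sharing gave -0.020 for Adcy3, -0.15 for Adcy9 and 0.46 for Pde2a. Adcy9 was at -0.18 in pools of 100 and -0.11 without Balb/c 100-2 and 400-1, and Prkar1a at 0.38 in pools of 100. Leaving out 1 array gave -0.010 (Balb/c 100-2) to 0.14 for Adcy9 and -0.52 to 0.050 (Balb/c 400-1) for Prkar1a. The median gene differed by 0.22 as deposited, 0.08 after quantile normalisation and 0.04 after range scaling. Apart from the smaller numbers of arrays or genes in some settings, the causes were not tested.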
